A study of Mus musculus with 4 samples.

Results

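Transcription initiation was examined at Sfmbt2, Jade1, Gab1, Slc38a4 and Smoc1, 5 protein-coding genes known as noncanonically imprinted in extraembryonic tissue. The genes were taken by name, and all 5 of them were found among the 21938 protein-coding genes of the annotation. PRO-seq, a nuclear run-on assay that maps engaged RNA polymerase, had been performed on 4 libraries, 2 from liver and 2 from yolk sac of mouse embryos at E14.5 (embryonic day of gestation). All 4 libraries came from the same kind of cross: C57BL/6J mothers were mated to males of mixed C57BL/6J and CAST/EiJ background, chosen to carry only CAST/EiJ variants at the Dlk1/Gtl2 locus. Each library was a pool of tissue from 6 embryos, so the 2 libraries of a tissue show the spread between pools. The labels do not say whether the pools shared litters, and p-values measure only the spread between these libraries.

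Most imprinted genes inherit allele-specific DNA methylation from the egg or sperm. Noncanonical imprinting instead rests on trimethylation of histone H3 at lysine 27, laid down by Polycomb repressive complex 2 in the oocyte, which silences the maternal copy in the early embryo. In the embryo proper this imprint is lost, whereas in extraembryonic tissue, best known in the trophoblast of the placenta, a small group of genes continues to be expressed mainly from the paternal copy. The deposited values are not resolved by allele, so the imprint itself was not measured, and what follows describes where initiation was called in each tissue.

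The values are dREG peaks, intervals classified as regions of transcription initiation, each with the authors' score. The liver lists held 24863 and 24333 peaks and the yolk sac lists 50525 and 43055, and every list began at a score of 0.80. The read depth of the lists is unknown. A site without a peak therefore had no call at or above that score, which is not evidence that it was silent. Because the yolk sac lists were longer, counts are given beside the share of other genes that behaved in the same way, and again with equal list lengths, for which every list was cut to its top 24333 peaks by score. A score percentile below is the rank of a peak within its own list, and since the lists differ in length, a gap between percentiles of different lists shows no change in level. With 2 libraries against 2, the smallest possible p of the exact permutation test is 0.333.

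The start sites that the results turn on are shown by the 250 bases before the RefSeq start (GRCm38.p6), because the calls at these positions separated the tissues at Sfmbt2 and at the first start of Jade1 and were shared at Gab1 and at the second start of Jade1. The first and the last start of Slc38a4 are shown because only the last was called in every library; its RefSeq window, unlike the others, lies upstream of the peaks and is overlapped by none. Each sequence reads 5′ to 3′ in the direction of the gene, and capitals mark CpG dinucleotides, the sites of DNA methylation.
Sfmbt2 first start, chr2:10370201-10370450, plus strand: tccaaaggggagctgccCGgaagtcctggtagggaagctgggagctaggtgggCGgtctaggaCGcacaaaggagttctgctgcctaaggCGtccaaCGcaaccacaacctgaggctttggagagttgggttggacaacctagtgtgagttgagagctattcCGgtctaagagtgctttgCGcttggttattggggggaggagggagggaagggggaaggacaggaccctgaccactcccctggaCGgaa
Sfmbt2 second start, chr2:10372186-10372435, plus strand: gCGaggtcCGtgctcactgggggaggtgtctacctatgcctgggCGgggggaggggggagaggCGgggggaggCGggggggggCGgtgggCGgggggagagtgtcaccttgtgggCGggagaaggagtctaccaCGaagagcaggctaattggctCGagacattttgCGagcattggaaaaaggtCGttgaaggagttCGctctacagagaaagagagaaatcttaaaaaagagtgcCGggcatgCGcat
Jade1 first start, chr3:41555484-41555733, plus strand: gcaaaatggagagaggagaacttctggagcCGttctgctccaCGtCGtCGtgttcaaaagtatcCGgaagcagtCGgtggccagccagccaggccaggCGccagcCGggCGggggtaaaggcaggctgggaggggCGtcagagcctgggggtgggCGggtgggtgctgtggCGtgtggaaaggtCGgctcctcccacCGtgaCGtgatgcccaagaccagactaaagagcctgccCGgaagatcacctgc
Jade1 second start, chr3:41563133-41563382, plus strand: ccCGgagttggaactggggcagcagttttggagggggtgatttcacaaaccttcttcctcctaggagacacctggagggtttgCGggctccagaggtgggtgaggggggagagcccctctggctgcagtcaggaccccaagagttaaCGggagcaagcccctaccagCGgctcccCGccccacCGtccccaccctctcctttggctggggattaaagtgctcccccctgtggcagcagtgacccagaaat
Gab1 first start, chr8:80880520-80880769, minus strand: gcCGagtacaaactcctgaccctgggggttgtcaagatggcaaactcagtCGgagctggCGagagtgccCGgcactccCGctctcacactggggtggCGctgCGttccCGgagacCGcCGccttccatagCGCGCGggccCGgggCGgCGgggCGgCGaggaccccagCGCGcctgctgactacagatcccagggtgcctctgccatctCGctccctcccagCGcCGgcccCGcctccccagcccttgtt
Slc38a4 first start, chr15:97055957-97056206, minus strand: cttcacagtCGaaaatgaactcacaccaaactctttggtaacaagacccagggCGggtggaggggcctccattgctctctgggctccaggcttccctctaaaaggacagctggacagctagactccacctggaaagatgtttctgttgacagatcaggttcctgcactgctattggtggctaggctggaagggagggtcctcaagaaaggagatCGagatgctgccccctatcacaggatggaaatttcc
Slc38a4 last start, chr15:97020360-97020609, minus strand: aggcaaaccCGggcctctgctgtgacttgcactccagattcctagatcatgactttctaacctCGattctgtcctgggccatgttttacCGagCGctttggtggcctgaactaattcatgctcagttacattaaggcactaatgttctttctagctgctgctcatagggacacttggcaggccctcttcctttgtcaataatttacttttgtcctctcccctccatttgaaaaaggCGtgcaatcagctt

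RefSeq promoter entries were found for 4 of the 5 genes, all but Smoc1, with 11 windows in all. Only the 7 chosen for display are described, so counts over them do not cover all promoters of these genes. The 7 windows shown ranged from 3 CpG at the first start of Slc38a4 to 24 CpG at Gab1. The median over 32851 promoter windows of the same length was 6 CpG. Both windows with a yolk-sac-only call at Sfmbt2 lay above that median, with 8 and 15 CpG, as did the first start of Jade1 with 16. The second start of Jade1, called in every library, held 6, and the last start of Slc38a4 held 5. The windows were searched on both strands for the GC box GGGCGG, the CCAAT box CCAAT, the TATA box TATAAA and the core of the YY1 motif, CCATNTT. Of the 7 windows, 6 held a GC box, all but the last start of Slc38a4, and 32.7% of all promoter windows held one; the second start of Sfmbt2 held 4. The CCAAT box, found in 33.8% of promoter windows, was present at both starts of Sfmbt2 and at the first start of Slc38a4. The YY1 core, found in 12.4%, was present at the first start of Jade1, at Gab1 and at the last start of Slc38a4. No window shown held the TATA box, which 12.4% of all windows held. These matches describe letters only.

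The first comparison asked which of the 5 genes had an initiation peak within 500 bp of an annotated start. Jade1, Gab1 and Slc38a4 were called in all 4 libraries, as were 53.8% of protein-coding genes. Sfmbt2 was called in yolk sac replicates 1 and 2 and in no liver library, termed yolk-sac-only, a pattern found at 5.26% of protein-coding genes. Smoc1 showed nearly the opposite, with calls in liver replicates 1 and 2 and, of the yolk sac pair, in replicate 2 only. This exact pattern was found at 0.0729% of protein-coding genes, and here it rested on a yolk sac peak of 302 bp at the 10.7th percentile. A call in both liver libraries and no yolk sac library was found at 1.01%. In bulk tissue, fewer cells of a type and less initiation per cell cannot be told apart. The number of genes called was 4 and 4 of 5 for liver against 4 and 5 of 5 for yolk sac, a difference of 0.5 (exact permutation p = 1). Of all protein-coding genes, 56.1% and 57.9% were called from the liver lists, and from the yolk sac lists 63.8% and 62.5%. The counts were thus nearly level while the genes and the starts behind them differed.

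Starts of a gene lying within 500 bp of each other were joined, which gave 17 start clusters over the 5 genes. Peaks were found at 5 and 6 of these clusters for liver, compared with 11 and 10 for yolk sac. The tissues did not overlap, and the difference of 5 clusters exceeded the difference of 1 between replicates of either tissue (exact permutation p = 0.333). Cutting all lists to equal length left a difference of 1.5 clusters (exact permutation p = 0.667). In all, 5 clusters had no peak in any library: 2 internal starts of Jade1, 1 of Gab1 and 2 of Slc38a4. Of the other clusters, 4 had a yolk-sac-only call, 4 had a call in each library and none was liver-only. Over all protein-coding genes, 5.0% of 52546 clusters had a yolk-sac-only call, 27.3% had a call in each library, 1.22% were liver-only and 61.0% had no peak.

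**Figure D1:**
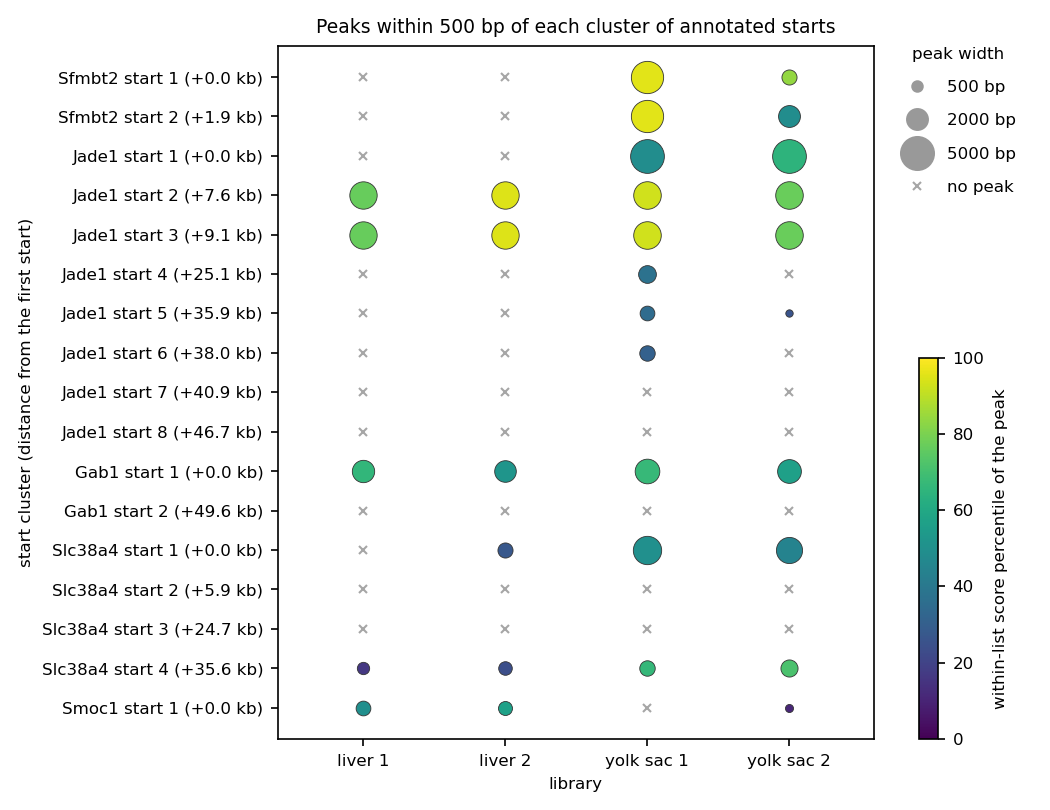
Peaks within 500 bp of each of the 17 start clusters (rows, with distance in kb from the first start of the gene) in the 4 libraries (columns). Circle area gives peak width in bp, colour gives the within-list score percentile, and crosses mark clusters without a peak. Circles stand in the yolk sac columns only for the 2 Sfmbt2 clusters, the first Jade1 cluster and 3 internal Jade1 clusters.

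Sfmbt2 encodes a Polycomb group protein with malignant brain tumour repeats and is required for growth of the trophoblast. The gene lies on chromosome 2 (10370510 to 10595253, plus strand) and has 2 start clusters, 1.93 kb apart, both of which give protein-coding transcripts. In yolk sac replicate 1 a single peak of 4802 bp covered both (10369751 to 10374552), at the 95.6th percentile of its list. This peak was wider than 99.2% of the promoter peaks of that list. In replicate 2 the same stretch held 2 peaks, of 1052 bp at the 83.9th percentile and of 2202 bp at the 48.7th, separated by the smallest gap that occurs in any list, 548 bp. Both liver lists were empty here. The peaks also reached within 500 bp of the start of Gm13261, an antisense noncoding gene that crosses the Sfmbt2 promoter, and since the peaks carry no strand the 2 genes cannot be told apart.

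The absence of liver peaks extended over the whole locus. Within the gene and 50 kb either side, a window of 324.7 kb, liver libraries had 0 and 0 peaks and yolk sac libraries 5 and 7. No peak in either liver list together with a peak in both yolk sac lists was found at 4.99% of the 5007 protein-coding genes of at least 50 kb. The yolk sac peaks were confined to the 5′ part of the window. Beside the promoter, intronic regions at 10399451 to 10400052 and at 10427001 to 10427802, 29.2 and 56.9 kb from the first start, were yolk-sac-only, as was 1 region upstream, at -6.98 kb. From the end of the intronic region at 10427802 to the end of the gene, 167.5 kb, no library had a peak. That stretch contains 119 annotated microRNA genes between 10465287 and 10518279, the cluster for which the locus is known, and none of them lay within 500 bp of a peak. Reads from these near-identical repeats can be hard to place, so the lack of peaks there is uncertain. In the lists of equal length the promoter call was again yolk-sac-only (2.61% of protein-coding genes), and the counts in the window were 0 and 0 against 2 and 2.

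Jade1 encodes a PHD finger scaffold protein of the HBO1 histone acetyltransferase complex. It lies on chromosome 3 (41555731 to 41616864, plus strand) with 8 start clusters. The second and the third cluster, 7.64 and 9.12 kb into the gene, shared 1 broad peak in every library. Its width was 3452 bp in each liver list (41563051 to 41566502) and 3502 bp in each yolk sac list (41563151 to 41566652). The percentiles were 76.9 and 94.6 for liver and, for yolk sac, 92.9 and 77.2, so the 2 replicates of a tissue ranked this peak differently. Joined across the libraries, these peaks also lay within 500 bp of the start of Gm31266.

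The first start of Jade1 was different. A peak of 5252 bp, from 41552701 to 41557952, was called there with identical ends in each yolk sac library, while liver had none. Although it lay only at the 48.8th and 64.7th percentiles by score, it was wider than 99.6% and 99.7% of the promoter peaks of the 2 lists. A gene with 1 start cluster called in every library and another in yolk sac only was found among 7.13% of the 13162 protein-coding genes with at least 2 clusters. This call depended on the length of the list. In lists of equal length, and likewise when the upper 50% by score was kept, the peak at the first start was present in yolk sac replicate 2 but not in replicate 1. Jade1 itself was still called in all libraries at equal length, as were 46.7% of protein-coding genes. Of the starts farther inside the gene, those at 25.1 and 38.04 kb had a peak in yolk sac replicate 1 only, and the one at 35.9 kb was yolk-sac-only.

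Further regions surrounded this start. In the gene and 50 kb either side, there were 1 and 2 liver peaks against 12 and 11 from yolk sac. Of 13 merged regions 9 were yolk-sac-only, 1 was shared by all libraries and none was liver-only. The yolk-sac-only regions upstream included 41550251 to 41551652, 41533451 to 41534602 and 41521801 to 41523602, at the 91.1st, 92.4th and 85.5th percentiles in replicate 1 and at the 69.5th, 70.9th and 65.2nd in replicate 2. The last of these, at -33.03 kb, was also within 500 bp of the start of the noncoding gene 2400006E01Rik. Inside the gene, regions at 41587451 to 41588852 (intron), 41591001 to 41592002 (overlapping an exon, at an internal start) and 41594001 to 41595102 (intron) were yolk-sac-only. The 3 upstream regions and the first of the intragenic ones were also yolk-sac-only at equal list lengths, and the window then held 1 and 2 liver peaks against 6 and 7.

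**Figure D2:**
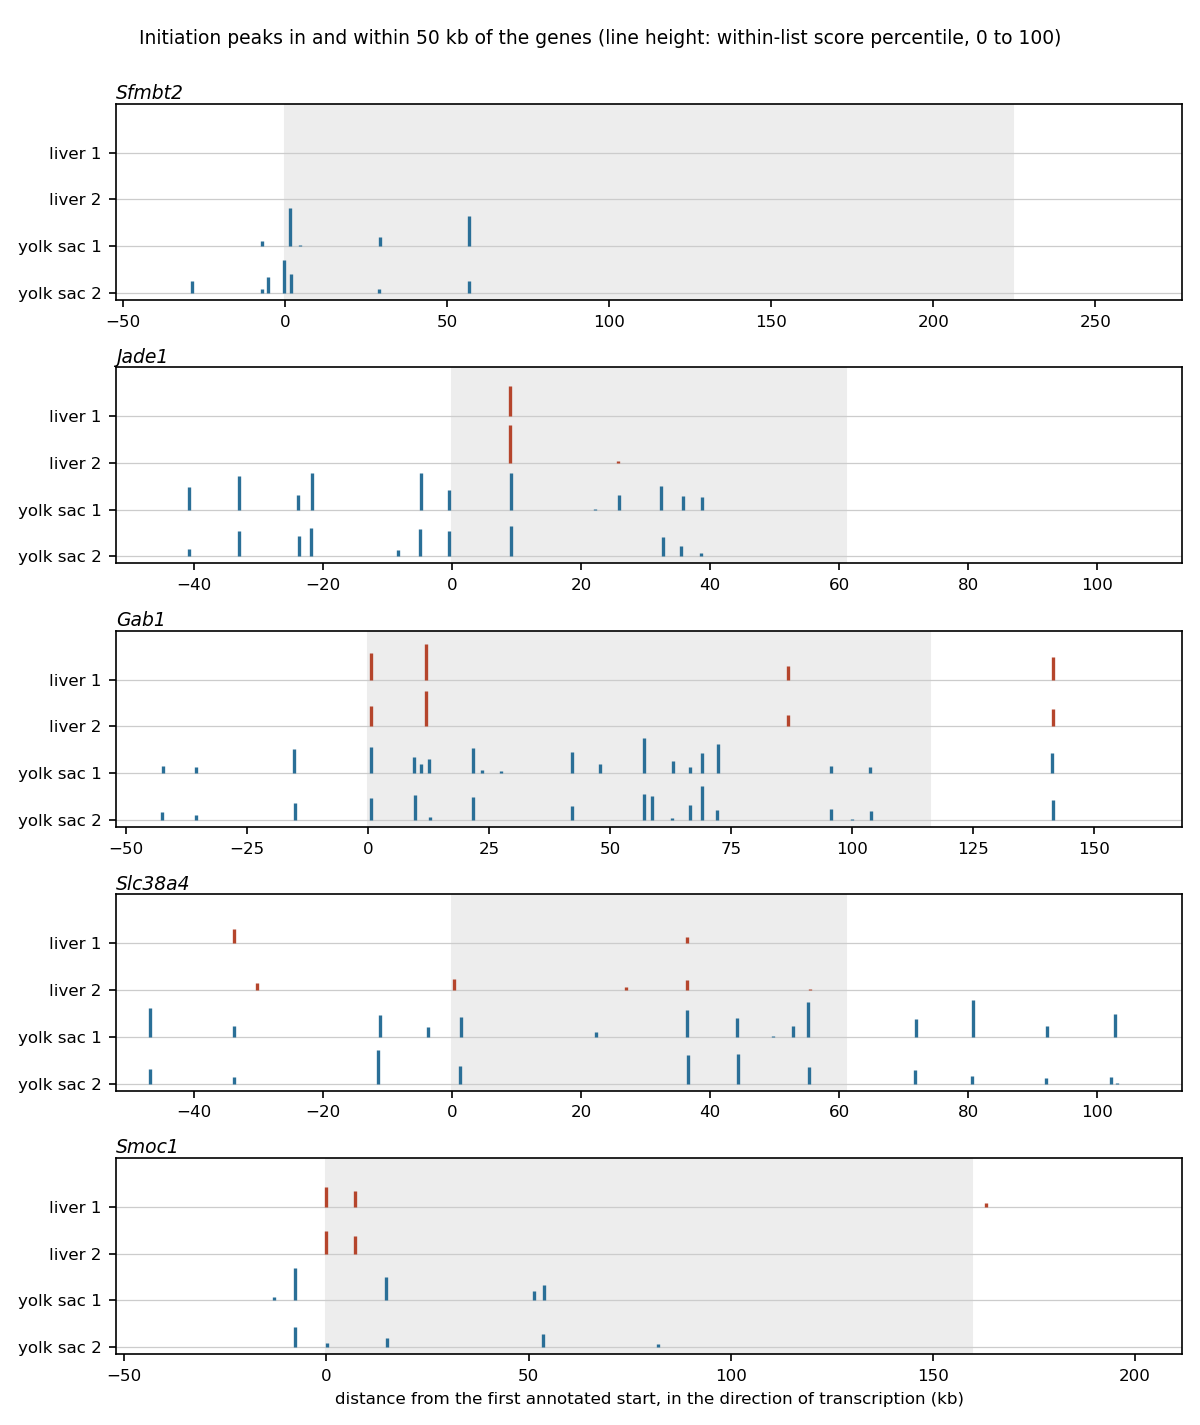
Peaks of the 4 libraries along each gene and 50 kb either side, as distance in kb from the first annotated start in the direction of transcription; grey shading marks the gene. Line height is the within-list score percentile. Liver lines are absent at Sfmbt2, and yolk sac lines are most numerous at Gab1, with 20 and 18 peaks.

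Gab1 encodes an adaptor that recruits PI3 kinase and the phosphatase SHP2 to receptor tyrosine kinases such as Met. The gene, on the minus strand of chromosome 8 (80764438 to 80880519), was called at its first start in all 4 libraries. The peaks were 2302 and 2152 bp wide in liver, at the 66.0th and 52.3rd percentiles, and 2802 and 2602 bp wide in yolk sac, at the 67.0th and 56.4th. The yolk sac peaks enclosed the liver peaks. Joined across the libraries, the peaks at this start also lay within 500 bp of the start of the neighbouring Gm31105. The internal start 49.6 kb into the gene, which belongs to a noncoding transcript, had no peak in any library.

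Gab1 held the most yolk sac peaks of the 5 genes, whereas in liver replicate 2 the body of Slc38a4 held 4 peaks and that of Gab1 held 3. The gene body held 3 and 3 liver peaks, against 16 and 14 from yolk sac. The difference of 12 was greater than that of 98.5% of protein-coding genes of at least 50 kb. For the bodies of Sfmbt2, Jade1, Slc38a4 and Smoc1 this share was lower, at 79.6%, 79.6%, 76.3% and 72.5%. Of the 18 merged regions in the body, 10 were yolk-sac-only, and all of them lay away from annotated starts. Those with the highest ranks were at 80823051 to 80824002 (88.2nd and 64.2nd percentiles), 80857701 to 80859852 (62.3rd and 59.1st) and 80810801 to 80812202 (51.2nd and 85.9th). The other 7 were at 80776301 to 80777002, 80784651 to 80785152 (the only one to overlap an exon), 80807751 to 80808802, 80813751 to 80814452, 80817351 to 80817902, 80838051 to 80838802 and 80870251 to 80871452. Of the 10, 6 lay between 42.1 and 72.2 kb from the first start, in the middle of the gene. Upstream of Gab1, 2 further regions were yolk-sac-only, the higher-ranked of them from 80922751 to 80923152 (18.2nd and 21.2nd percentiles).

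Liver also had an intronic region of its own at Gab1. The region at 80793551 to 80794102 was liver-only (the reverse pattern), at the 34.3rd and 27.6th percentiles. At least 1 liver-only region in the body was found at 19.6% of protein-coding genes of at least 50 kb. A second intronic region, 11.8 kb from the first start, was called in all libraries but differed in form. In liver it was a single peak of 2402 and 2302 bp, from 80867451 to 80869852 in replicate 1, at the 90.8th and 90.03rd percentiles. In yolk sac replicate 1 it was split into peaks of 402 and 602 bp at the 35.3rd and 22.6th percentiles, and in replicate 2 only a peak of 102 bp at the 6.45th percentile was called. At equal list lengths these yolk sac peaks fell below the higher score cut of their lists, and the region became liver-only. The gene body then held 3 and 3 liver peaks against 5 and 6. At this length 2 yolk-sac-only regions were left in the body, at 80823051 and at 80857701.

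Slc38a4 encodes a sodium-coupled neutral amino acid transporter that is abundant in liver and placenta. It lies on the minus strand of chromosome 15 (96994820 to 97055956) and has 4 start clusters, of which the first and the last had peaks. At the first start the peaks were 3702 and 3152 bp wide in yolk sac, at the 49.7th and 44.6th percentiles of their lists. Liver replicate 2 had a peak of 1052 bp there at the 27.3rd percentile, and liver replicate 1 had none. At the fourth cluster, 35.6 kb into the gene, all 4 libraries had a peak. The widths there were 702 and 852 bp in liver, at the 16.1st and 23.9th percentiles, and 1102 and 1352 bp in yolk sac, at the 66.8th and 71.3rd. The gene is thus called in every library only through its internal start, and the 2 liver libraries disagreed at the first one. When only the upper 50% of each list by score was kept, the gene was yolk-sac-only, as was Sfmbt2, both among 8.85% of protein-coding genes; for Slc38a4 this came from the internal start.

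Around Slc38a4 the 2 liver libraries differed more than at the other genes. The gene body held 1 and 4 liver peaks against 7 and 4 from yolk sac, so the tissues touched (exact permutation p = 0.667). With 50 kb either side liver had 2 and 5, compared with 15 and 12. Yolk-sac-only regions numbered 7 of 17, with 1 in the body, in an intron at 97011151 to 97012202. The other 6 were in the flanks, and the one with the highest rank lay upstream, at -11.1 kb, from 97065901 to 97068202 (55.7th and 84.3rd percentiles). It was the only region of the locus that was yolk-sac-only with equal list lengths, where the counts of 2 and 5 for liver and 6 and 4 for yolk sac overlapped.

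Smoc1 encodes a secreted calcium-binding matricellular protein that antagonises bone morphogenetic protein signalling. It lies on chromosome 12 (81026808 to 81186414, plus strand), the chromosome of the Dlk1/Gtl2 locus, with 1 start cluster. The liver libraries had peaks of 1002 and 902 bp there, both beginning at 81026251, at the 49.3rd and 57.0th percentiles. In yolk sac, replicate 1 had none and replicate 2 had 1 peak of 302 bp at the 10.7th percentile. In lists of equal length the promoter was liver-only, a pattern found at 3.01% of protein-coding genes. The yolk sac peak, with a score of 0.857, lay below the yolk sac cut but above that of either liver list. With the higher-scoring 50% only the peak in liver replicate 2 was left.

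At Smoc1 the tissues differed in the position and in the number of peaks. The gene body held 1 and 1 liver peaks against 3 and 4 from yolk sac. A liver-only region lay in an intron 6.99 kb from the start, at 81033501 to 81034102 (39.3rd and 43.1st percentiles). The yolk sac libraries instead shared intronic regions at 81041251 to 81041952 and at 81080101 to 81080902, and a region upstream, at -7.66 kb, from 81018501 to 81019802 (80.03rd and 51.5th percentiles). None of the 3 was called in liver, and the upstream region was yolk-sac-only at equal list lengths too. Across the window of 259.6 kb liver had 3 and 2 peaks and yolk sac 5 and 5. At equal list lengths, where the score cut was higher in the yolk sac lists, the counts were 3 and 2 against 2 and 1, and the direction turned. No region of this window was called in all 4 libraries.

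Over the 5 gene bodies together there were 6 and 10 liver peaks against 36 and 29 from yolk sac, or 8 ± 2.83 and 32.5 ± 4.95 (SD, n = 2; exact permutation p = 0.333). With 50 kb either side they numbered 10 and 14 against 57 and 53, or 12 ± 2.83 and 55 ± 2.83 (SD, n = 2; exact permutation p = 0.333). In both cases the tissues did not overlap, and the gap exceeded the spread between replicates. Both yolk sac lists exceeded both liver lists in the body of 4 of the 5 genes, all but Slc38a4, and at 43.7% of protein-coding genes of at least 50 kb. With the flanks this held at 5 of 5 genes and at 58.7% of the background. With equal list lengths it held in the body of Sfmbt2 and Gab1 (18.0% of the background) and, with the flanks, at Sfmbt2, Jade1 and Gab1 (22.1%). The counts summed over the 5 genes with flanks were then 10 and 14 against 22 and 22.

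**Figure D3:**
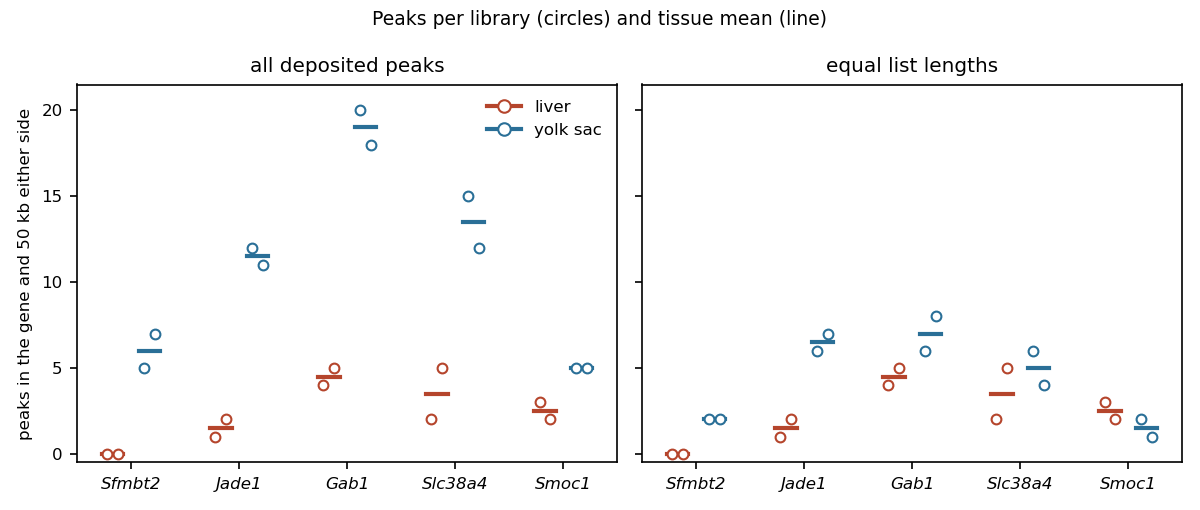
Number of peaks in each gene and 50 kb either side, with all deposited peaks (left) and with every list cut to 24333 peaks (right). Circles are libraries and lines are tissue means; at Smoc1 the order of the tissues turns between the panels, from 3 and 2 for liver against 5 and 5, to 3 and 2 against 2 and 1.

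Merging the peaks of the 4 lists gave 68 regions in the 5 genes and their flanks. Of these, 35 (51.5%) were yolk-sac-only, 2 (2.94%) were liver-only and 5 (7.35%) were shared by all libraries. Among all 61095 regions of the genome the shares were 33.0%, 6.62% and 25.7%. That set includes promoter regions and was not matched for distance to starts, whereas 56 of the 68 lay more than 500 bp from any annotated start. Another 20 were seen in 1 library only. All 5 genes had a yolk-sac-only region in the body and in the window with flanks, as did 51.9% and 72.8% of protein-coding genes of at least 50 kb. A liver-only region in the window was found at Gab1 and Smoc1 and at 32.9% of the background. With equal list lengths 39 regions were left, of which 9 (23.1%) were yolk-sac-only, 4 (10.3%) liver-only and 3 (7.69%) shared, against 16.8%, 15.6% and 31.5% of all regions. The 4 liver-only regions were 2 at Gab1 and 2 at Smoc1. With the higher-scoring 50% of each list 31 regions were left. Of these, 10 (32.3%) were yolk-sac-only, 1 (3.23%) liver-only and 2 (6.45%) shared, against 31.1%, 5.72% and 26.2% of all regions. The yolk-sac-only share was then close to that of all regions. In the full lists, yolk-sac-only regions were densest at Jade1 and Gab1, with 5.59 and 5.55 per 100 kb, followed by Slc38a4 with 4.34. They were sparser at Sfmbt2 and Smoc1, with 1.23 and 1.16, where the median of protein-coding genes of at least 50 kb was 0.740. Of the 35 yolk-sac-only regions, 30 lay more than 500 bp from any annotated start.

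**Figure D4:**
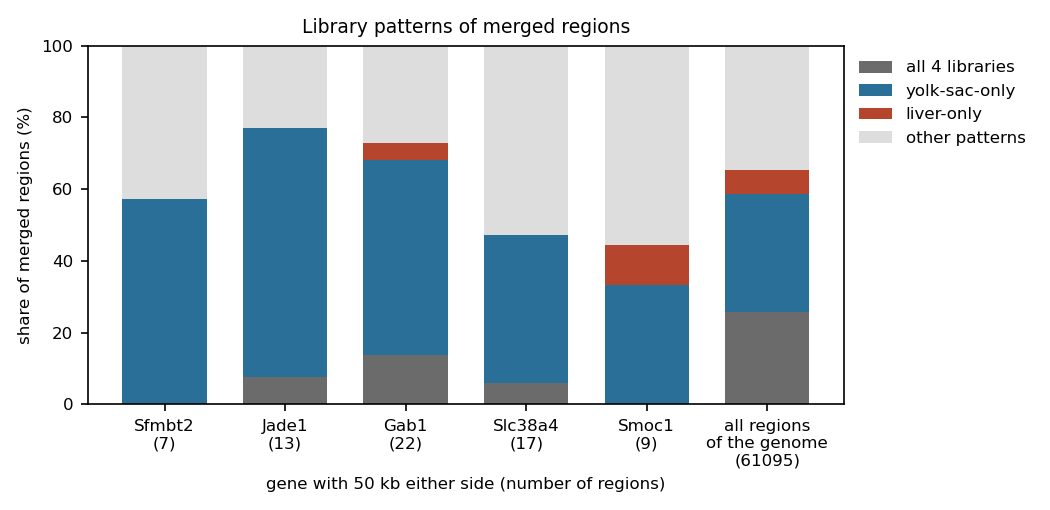
Share of merged regions by the libraries that called them, for each gene with 50 kb either side and for all 61095 regions of the genome; numbers of regions are in parentheses. Regions shared by all 4 libraries make up 25.7% of all regions, a set not matched for distance to starts, and are absent at Sfmbt2 and Smoc1.

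Related genes were given by lists. Of 10 paralogs, 8 had a promoter peak in all 4 libraries, among them Sfmbt1, Jade2, Jade3, Gab2 and Gab3. Smoc2, the paralog of Smoc1, was yolk-sac-only, at the 74.1st and 79.9th percentiles, and the amino acid transporter gene Slc38a5 was liver-only, at the 83.8th and 86.2nd. Genes of the silencing machinery, 15 in number and including the Polycomb genes Ezh2, Eed and Suz12 and the DNA methyltransferase genes, were called in all 4 libraries without exception, as were 53.8% of all protein-coding genes. The same was true of 11 genes of partner proteins such as Kat7, Met and Egfr. Of 14 genes described with imprinting dependent on H3K27me3 in preimplantation embryos, 12 were called in all 4 libraries, Sall3 was yolk-sac-only and Otx2 was called in none. By the percentile of the best promoter peak over the 4 libraries, the gene nearest to Sfmbt2 was Itgb6 (Euclidean distance 1.17), to Jade1 Sde2 (4.23), to Gab1 Glce (2.60), to Slc38a4 Wnt2 (5.29) and to Smoc1 Lin7a (8.52).

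Of the marker lists, that of erythroid genes differed most between the tissues in promoter calls. Of 9 erythroid genes listed, 8 were found in the annotation by name, all but Ahsp. Of these 8, 8 and 8 had a promoter peak in liver, compared with 2 and 2 for yolk sac. For yolk sac endoderm the numbers were 8 and 7 of 10 against 10 and 10, with Amn and Cubn yolk-sac-only, and for mesenchyme 7 and 9 of 10 against 10 and 10, with Hand1 yolk-sac-only. The share called over all protein-coding genes was also higher from the yolk sac lists (63.8% and 62.5%) than from the liver lists (56.1% and 57.9%), and no marker list was tested. Of 10 trophoblast genes, 9 had no promoter peak in any library, among them Tpbpa, Gcm1, Prl3b1 and Elf5, and Ascl2 was called in all 4. Over all protein-coding genes, 34.2% had no promoter peak in any library. Of 10 hepatic genes, 7 and 6 were called against 6 and 6 for yolk sac, and of 6 endothelial genes 5 and 6 against 6 and 6. The part of these cell types in the calls at the 5 genes was not tested.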

How the data were processed

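PRO-seq was performed by the submitters on isolated chromatin from powdered frozen tissue, per the labels' protocols. The deposited files are 4 lists of peaks, 1 per library, each peak with the authors' score, a number without a unit that was not scaled between libraries. The file names carry the word dREG. The submitters' processing notes name Bowtie2, bedtools and the build mm10. The version of dREG and its filters are not given in the sources used here. GENCODE M21 (GRCm38, the same assembly as mm10) supplied genes and starts, and positions are 1-based.

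Peaks within 500 bp of any annotated start counted as promoter calls, and peaks were assigned to bodies and flanks of 50 kb by their midpoint. Peaks overlapping by at least 1 bp across lists were merged into regions; "yolk-sac-only" regions were called by the 2 yolk sac libraries and by no liver library, and "liver-only" ones the other way round. Groups were compared by exact two-sided permutation over libraries. Python 3.11.15, numpy 2.4.6 and pandas 2.3.3 were used. Tested on simulated lists, the counting returned all of the 4000 promoter patterns and body counts. The genes, gene lists and alternatives were chosen with earlier results of these data known. All 5 genes are named. Regions named are those called in 1 tissue only in a gene body or at its starts, and in the flanks the highest-ranked per gene; the others named were picked after their values were seen. Alternatives were both score filters, other windows, flanks and overlaps, protein-coding starts, scaling to list length, leaving out each library and the replicate block.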

Additional observations from a re-analysis of the deposited data

How the results depend on the processing

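With so few libraries no test could pass a threshold, so a difference counts as moved here when it shifted by more than the replicate SD, and a count when it changed over 1.5 times. None of the 8 main results reversed. With the higher-scoring 50% of each list, the yolk sac minus liver difference rose to 1.5 promoter calls and fell to 8 peaks in bodies, 16.5 peaks with flanks and 2.5 start clusters, while yolk-sac-only genes numbered 2, yolk-sac-only regions 10 and liver-only regions 1. With equal list lengths it was 0 promoter calls, 4 peaks in bodies, 10 with flanks and 1.5 start clusters, with 9 yolk-sac-only and 4 liver-only regions. Per 10000 peaks of a list it was 3.67 peaks in bodies and 6.91 with flanks. These are rates in another unit, so their distance from the counts of 24.5 and 43 shows no drop. Flanks of 25 and 100 kb gave 35 and 57 peaks, and 100 kb gave 5 liver-only regions. A window of 2000 bp gave 6 start clusters, and protein-coding starts alone gave 3. Leaving out each library in turn gave 0 to 1 promoter calls, 21 to 28 peaks in bodies, 41 to 45 with flanks, 4.5 to 5.5 start clusters, 3 to 4 genes called in all libraries, 36 to 46 yolk-sac-only regions and 2 to 4 liver-only regions, the 4 without liver replicate 1, where a call needs 1 liver library only. For single genes, the difference in best promoter percentile was -0.68 at Jade1 and 2.54 at Gab1. Leaving out each library in turn gave -9.53 to 8.16 at Jade1 (reversed to 8.16 without liver replicate 2 and 7.16 without yolk sac replicate 2) and -4.28 to 9.36 at Gab1 (reversed to -4.28 without liver replicate 2 and -2.75 without yolk sac replicate 1). At Smoc1 the difference in peaks reversed to -0.5 in the body and -1 with flanks at equal list lengths. Where no construction is named, the cause was not tested. The replicate block left the difference in promoter calls at 0.5 and those in peaks at 24.5 and 43 (exact sign-flip p = 0.5, the smallest possible, for both peak counts). The labels do not say whether replicate numbers pair the libraries. The correlation of deviations over 5007 genes was -0.03, which with 2 libraries per tissue cannot decide this. Depth is unknown and limits every absent call.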
